A study of Drosophila melanogaster with 12 samples.

Results

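The genes described here are 9 components of the epidermal growth factor (EGF) receptor pathway of Drosophila melanogaster, namely Egfr, spi, vn, Krn, rho, aos, sty, pnt and aop. They were chosen by name for their role in the pathway, with earlier results of these data known. They were matched by gene symbol in a table of 13777 genes, where all 9 were present and all 9 passed the filter on low values. Levels were measured by sequencing transcript 3′ ends in S2R+ cells, an established embryonic fly cell line that grows attached and has hemocyte-like properties. The 4 groups compared were S2R+ cells labelled with no treatment (untreated) and S2R+ cells transfected with the wild-type form of Elav (labelled ElavWT), of Fne (FneWT) or of Rbp9 (Rbp9WT), with 2 libraries each. These 3 proteins form the ELAV/Hu family of the fly, a neuronal group of RNA-binding proteins known for regulating splicing and the choice of poly(A) site. The labels name the transfection reagent but no mock transfection of the untreated cells, so the effect of a protein and that of transfection cannot be told apart against these controls. A further 4 libraries, of RRM mutant versions of the proteins, were not analysed here.

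In this pathway a secreted ligand binds the receptor tyrosine kinase Egfr, and the signal runs through Ras and the MAP kinase cascade to ETS-family transcription factors in the nucleus. Spitz (spi), Vein (vn) and Keren (Krn) are activating ligands. Spitz and Keren are made as membrane-bound precursors that rhomboid proteases such as the product of rho cleave, whereas Vein is secreted without that step. Argos (aos) is a secreted inhibitor that binds Spitz, and Sprouty (sty) inhibits the cascade inside the cell. Pointed (pnt) activates target genes and Anterior open (aop, also called Yan) represses them. Several of these genes, among them aos, sty, rho and pnt, are known targets of the pathway in fly tissues, which makes their transcript levels part of its feedback loops.

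The values are CPM, read counts scaled to the library total, with 1 level per gene. A 3′-end read marks the end of a transcript, so levels of different genes were compared without dividing by length, and the choice between poly(A) sites of a gene was not measured. The libraries held 4694825 to 14391952 reads, so that a single read was worth 0.0695 to 0.213 CPM. Genes of rRNA took 2.91% to 5.91% of the reads in the replicate 1 libraries and 15.4% to 24.8% in the replicate 2 libraries. The labels do not say that replicates came from separate cultures, so a p-value reflects the spread between the libraries alone, and that spread may be technical. As a check of the labels, Rbp9 stood at 713 and 58.8 CPM in its own group and never above 7.46 CPM elsewhere. fne stood at 97.4 and 48.0 CPM in its own group, beside 6.67 and 1.91 CPM in untreated libraries. Replicate 1 of the other transfected groups held 49.8 and 114.8 CPM of fne, so its level did not single out its label. The elav level did not mark its label, with 29.2 and 26.6 CPM in the libraries of that label beside 24.9 and 37.3 CPM in the untreated ones. Of the hemocyte markers, srp, crq and Pxn were present in all 8 libraries, Hml stayed at or below 5.3 CPM, and NimC1 was at or near 0.

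Untreated S2R+ cells contained transcripts of all 9 genes, at levels from 3.77 to 1136 CPM. The inhibitor gene sty stood highest with 1136 ± 291 CPM (SD, n = 2), followed by the activator gene pnt with 536 ± 354, the ligand gene spi with 368 ± 79.1 and the repressor gene aop with 232 ± 132 CPM. The protease gene rho followed with 39.4 ± 16.5 CPM and the inhibitor gene aos with 9.37 ± 2.54 CPM. The ligand gene Krn measured 6.17 ± 2.08 CPM, the receptor gene Egfr 4.12 ± 3.12 CPM and the ligand gene vn 3.77 ± 2.43 CPM. In that order the untreated libraries of neighbouring genes did not overlap for sty and pnt, for aop and rho, or for rho and aos. They overlapped for pnt and spi, for spi and aop, and for each neighbouring pair from aos down to vn. Both aos libraries lay above both libraries of Egfr and of vn, while the order among Krn, Egfr and vn, and that of aos and Krn, is not resolved beyond the spread. Across all 8 libraries the 9 genes summed to 1621 to 3297 CPM, of which sty, pnt and spi together made up 79.1% to 88.7%.

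**Figure D1:**
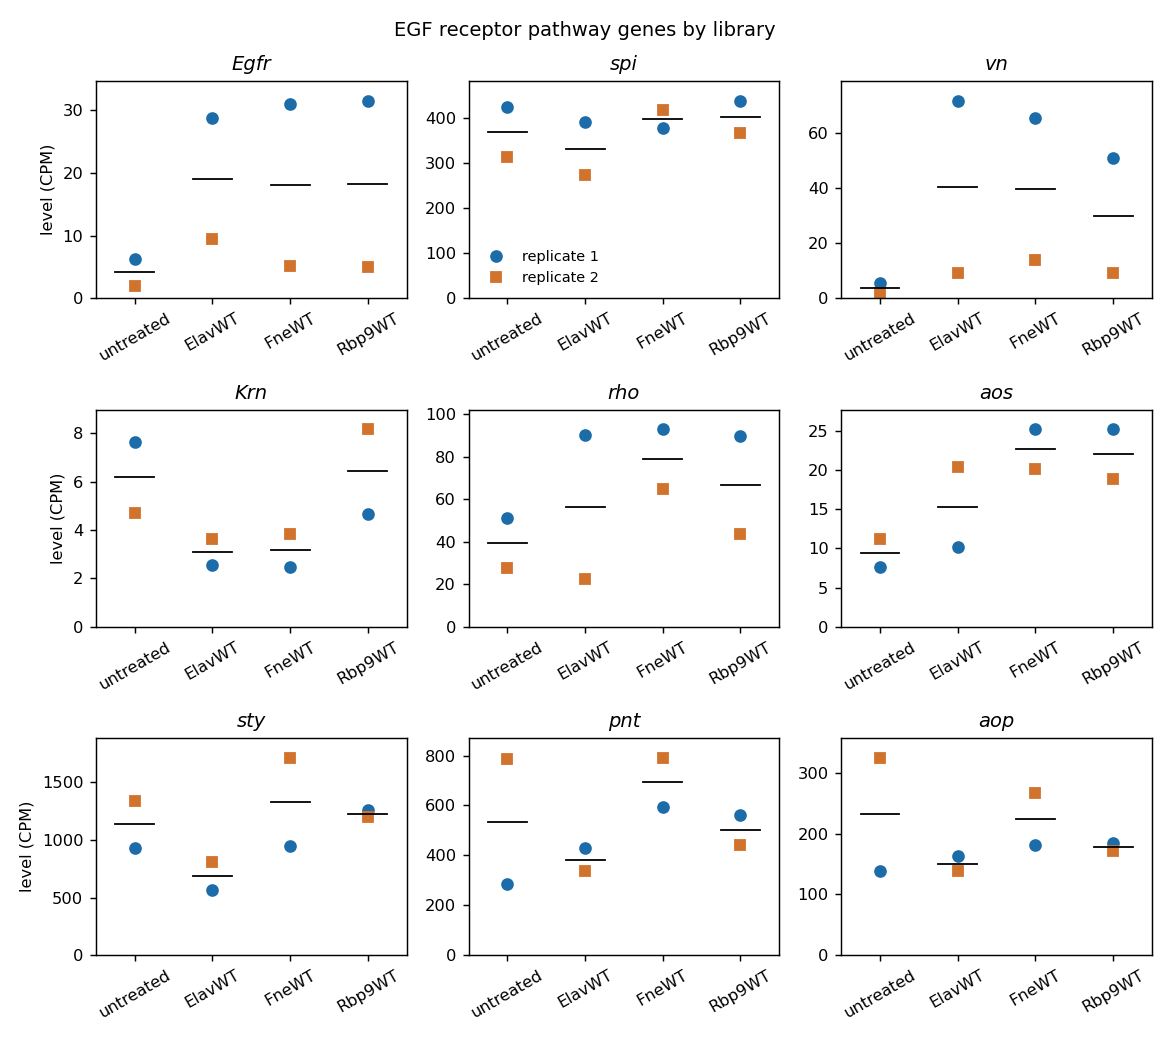
Level of each of the 9 genes in CPM (y axis, linear and from 0) in the 4 groups (x axis). Circles are replicate 1, squares replicate 2 and the bars the mean of the 2 libraries. Both transfected libraries of every group lie above both untreated libraries for vn, while the spi libraries of all groups lie between 272 and 438 CPM.

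Against untreated cells, vn and Egfr were those of the 9 genes that passed the test in all 3 transfected groups, in each case higher. aos passed in FneWT and Rbp9WT and rho in FneWT, also higher. No member passed in the lower direction. These calls come from limma on log2(CPM + 1) over 9114 genes in a fit that included the replicate number. Same-numbered libraries deviated together, and log2 changes are given relative to the median tested gene of the contrast, which itself lay 0.25 (ElavWT), 0.28 (FneWT) and 0.42 (Rbp9WT) higher than in the untreated libraries. The adjusted p-values (Benjamini-Hochberg over all tested genes, threshold 0.05) belong to the unshifted change. In the fit with no replicate term, limma passed 0 members in each contrast. In that fit 0 members in ElavWT and 1 each (aos) in FneWT and Rbp9WT had an unadjusted p under 0.05. So had 444, 677 and 666 of the 9114 tested genes in these contrasts. edgeR and DESeq2 without the replicate term also passed 0 members, each with 1 (vn) at an unadjusted p under 0.05. Of all tested genes, 843, 1085 and 924 were under it with edgeR and 1041, 1345 and 1184 with DESeq2. All 3 comparisons share the untreated libraries, so their results are not independent of each other.

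With the replicate term, 2 of 9 genes were higher in ElavWT (Egfr and vn), beside 9.02% of all tested genes. In FneWT 4 of 9 were higher (Egfr, vn, aos and rho), beside 15.1%, and in Rbp9WT 3 of 9 (Egfr, vn and aos), beside 17.7%. In the lower direction 0 of 9 passed in each group, beside 1.09%, 1.94% and 0.735% of tested genes. The median relative log2 change of the 9 genes was -0.40 in ElavWT, 0.25 in FneWT and -0.28 in Rbp9WT, and that of all tested genes is 0 by construction. The changes differed among the 9 genes, spanning -1.04 to 2.36 in ElavWT, -1.06 to 2.54 in FneWT and -0.67 to 1.95 in Rbp9WT. Over all genes the replicate-term fit called 822 higher and 99 lower in ElavWT, 1374 higher and 177 lower in FneWT, and 1617 higher and 67 lower in Rbp9WT. After scaling by median ratios these splits were 699 and 261, 1111 and 597, and 940 and 442.

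**Figure D2:**
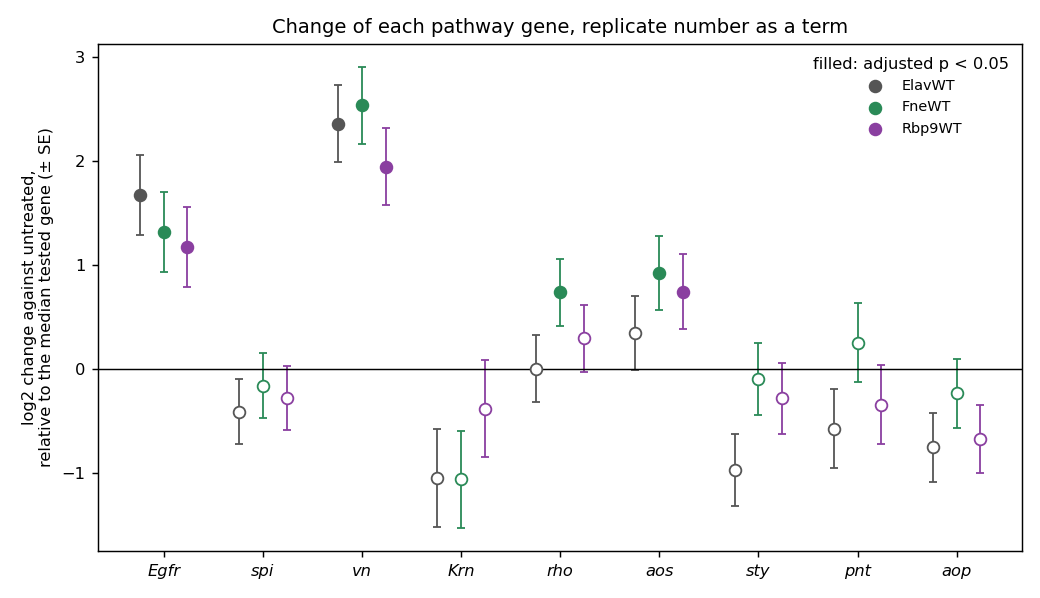
Log2 change of each of the 9 genes (x axis) from untreated cells, set relative to the median tested gene (y axis), with its standard error. The fit was limma with a replicate term. Filled points have an adjusted p under 0.05. vn and Egfr are filled in all 3 groups, aos in FneWT and Rbp9WT, and rho in FneWT.

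Among the ligands, vn (FBgn0003984, chromosome 3L, 5813338 to 5845664, minus strand in the Ensembl annotation of BDGP6) had the highest relative log2 change of the 9 genes in every group. In ElavWT this order rested on replicate 1, without which the change was 1.93 for vn and 2.00 for Egfr. Vein is a neuregulin-like ligand and a weaker activator of the receptor than cleaved Spitz. vn measured 5.49 and 2.06 CPM in untreated replicates 1 and 2, which correspond to 79 and 14 reads. It measured 71.9 and 9.16 CPM in ElavWT, 65.6 and 13.8 CPM in FneWT, and 50.9 and 9.16 CPM in Rbp9WT. Both libraries of each group lay above both untreated libraries, and replicate 1 was the higher library in all 4 groups. Such a gap was present for 23%, 25.3% and 33.5% of all tested genes in ElavWT, FneWT and Rbp9WT. Within a replicate number, vn was 13.1-fold and 4.45-fold higher in ElavWT, 12.0-fold and 6.72-fold in FneWT, and 9.27-fold and 4.46-fold in Rbp9WT.

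The relative log2 change of vn was 2.36 ± 0.37 (SE; adjusted p = 3.32e-05) in ElavWT, 2.54 ± 0.37 (adjusted p = 7.87e-06) in FneWT and 1.95 ± 0.37 (adjusted p = 7.89e-05) in Rbp9WT. The standard error of the same change was 1.23 with the group as the only term, where the adjusted p-values were 0.990, 0.680 and 0.735. vn passed in all 16 alternatives run with the replicate term in each contrast. Its annotation holds 2 distinct 3′ ends 353 bases apart and a longest 3′ UTR of 1124 bases, and no annotated gene overlaps it. The neighbour mad2, whose span comes within 500 bases of the vn 3′ end on the same strand, measured 55.4 to 95.6 CPM and was highest in an untreated library.

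spi (FBgn0005672, chromosome 2L, 19567900 to 19577315, minus strand), the main activating ligand in most fly tissues, had the smallest spread of the 9 genes over the 8 libraries (root mean square 0.220 on the log2 scale). It measured 424 and 312 CPM in untreated replicates 1 and 2, 391 and 272 CPM in ElavWT, 378 and 417 CPM in FneWT, and 438 and 366 CPM in Rbp9WT. Each transfected group overlapped the untreated libraries. The relative log2 changes were -0.40, -0.15 and -0.28 (SE 0.31 each), and none passed.

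Krn (FBgn0052179, chromosome 3L, 17649562 to 17654280, minus strand) encodes a ligand related to Spitz that acts partly redundantly with it. It measured 7.64 and 4.70 CPM in untreated cells, 2.54 and 3.62 CPM in ElavWT, 2.49 and 3.82 CPM in FneWT, and 4.68 and 8.17 CPM in Rbp9WT. The ElavWT and FneWT libraries lay below both untreated libraries, as did 7.33% and 8.06% of all tested genes, while Rbp9WT overlapped them (5.98% of genes lay below in that group). The relative changes of -1.04 ± 0.47 in ElavWT and -1.06 ± 0.47 in FneWT did not pass (adjusted p = 0.298 and 0.256 with the replicate term). Without untreated replicate 2 these changes were -1.76 and -1.78, and without untreated replicate 1 they were -0.31 and -0.34. Krn rested on 17 to 110 reads per library, and it shares 289 exonic bases on the same strand with Ndfip (18.3 to 62.9 CPM), so its reads may not be separable from those of that gene.

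The reads of the 3 ligand genes were also set against each other within each library, a quantity added after the levels were seen. vn made up 1.26% of the ligand reads in untreated replicate 1 (95% exact binomial interval 0.995% to 1.56%) and 0.645% in replicate 2 (0.353% to 1.08%). In ElavWT its share was 15.5% (14.2% to 16.7%) and 3.21% (2.33% to 4.30%). In FneWT it was 14.7% (13.6% to 15.9%) and 3.18% (2.51% to 3.96%), and in Rbp9WT 10.3% (9.43% to 11.3%) and 2.39% (1.75% to 3.17%). These intervals cover counting error only. Every transfected library exceeded both untreated libraries, and the replicate 1 share exceeded that of replicate 2 in each group. spi was the majority ligand transcript everywhere, with 84.0% to 97.9% of the ligand reads.

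**Figure D3:**
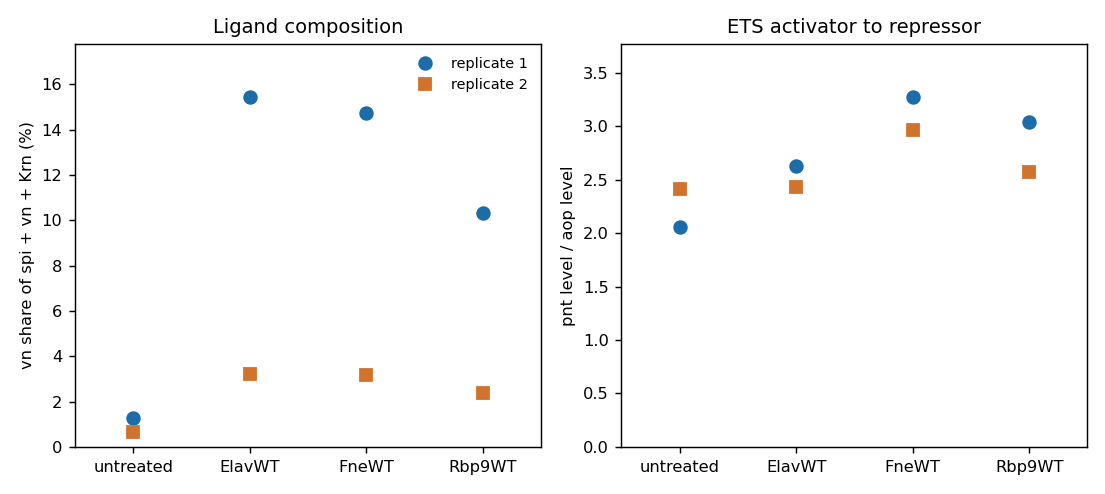
Left, share of vn in the reads of spi, vn and Krn in percent (y axis) by group (x axis). Right, ratio of the pnt level to the aop level. Circles are replicate 1 and squares replicate 2. The vn share reaches 15.5% in ElavWT replicate 1 and is at most 1.26% in untreated cells, and the pnt to aop ratio runs from 2.06 to 3.28.

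rho (FBgn0004635, chromosome 3L, 1463811 to 1468944, plus strand) encodes the intramembrane protease whose presence usually limits where Spitz is released. It measured 51.1 and 27.8 CPM in untreated replicates 1 and 2, 90.4 and 22.4 CPM in ElavWT, 92.9 and 64.6 CPM in FneWT, and 89.6 and 43.4 CPM in Rbp9WT. Only in FneWT did both libraries lie above both untreated ones, as for 25.3% of all tested genes in that group. The relative change in FneWT was 0.74 ± 0.32 (SE; adjusted p = 0.0282), and 0.01 ± 0.32 in ElavWT and 0.30 ± 0.32 in Rbp9WT did not pass (adjusted p = 0.647 and 0.120). The call in FneWT was kept in 9 of 16 alternatives with the replicate term, and it was lost after median-ratio scaling (adjusted p = 0.106), without untreated replicate 1 (0.262) and without FneWT replicate 1 (0.0651) or 2 (0.298), as it was with edgeR, DESeq2 or no filter on low values (0.0689 to 0.108). Ptp61F overlaps rho on the opposite strand without shared exons. Ptp61F measured 76.6 and 123 CPM in untreated cells and 260.5 and 161.9 CPM in ElavWT. In FneWT it measured 260.5 and 210.1 CPM, and in Rbp9WT 175.1 and 132.9 CPM. No label says whether counting used strand, so the part of such partners in the rho and aos values was not tested.

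Egfr (FBgn0003731, chromosome 2R, 21522420 to 21559977, plus strand), the receptor of all 3 ligands, measured 6.32 and 1.91 CPM in untreated replicates 1 and 2, or 91 and 13 reads. It measured 28.8 and 9.37 CPM in ElavWT, 31.1 and 5.09 CPM in FneWT, and 31.5 and 4.98 CPM in Rbp9WT. Replicate 1 exceeded replicate 2 by 3.31-fold in untreated cells, 3.07-fold in ElavWT, 6.10-fold in FneWT and 6.33-fold in Rbp9WT. Both ElavWT libraries lay above both untreated ones, as for 23% of all tested genes in that group. In FneWT and Rbp9WT the replicate 2 library lay below untreated replicate 1. Within a replicate number Egfr was higher in every transfected library, by 4.55-fold and 4.91-fold in ElavWT, 4.91-fold and 2.67-fold in FneWT, and 4.98-fold and 2.61-fold in Rbp9WT.

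The relative log2 change of Egfr was 1.68 ± 0.38 (SE; adjusted p = 0.00161) in ElavWT, 1.32 ± 0.38 (adjusted p = 0.00521) in FneWT and 1.18 ± 0.38 (adjusted p = 0.00482) in Rbp9WT. Without untreated replicate 1 none of the 3 passed, with relative changes of 1.46, 1.09 and 0.97 and adjusted p = 0.0507, 0.127 and 0.110. Without FneWT replicate 1 the change in FneWT was 1.13 (adjusted p = 0.182), and without Rbp9WT replicate 1 that in Rbp9WT was 0.81 (adjusted p = 0.218). The annotation gives Egfr a single 3′ end with a 3′ UTR of 895 bases. The 5 annotated genes that overlap it lie on the opposite strand, share no exon with it and were not analysed here. The gene twz comes within 500 bases of the Egfr 3′ end on the opposite strand and shares no exon with it. It measured 1.60 and 0.441 CPM in untreated replicates 1 and 2, and 6.77 and 0.852 CPM in ElavWT. In FneWT it measured 3.36 and 0.728 CPM, and in Rbp9WT 6.16 and 0.996 CPM. The part of twz in the Egfr values was not tested.

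aos (FBgn0004569, chromosome 3L, 16470386 to 16483650, minus strand) encodes the secreted antagonist of Spitz and serves as a common reporter of receptor activity in the embryo and the eye. It measured 7.57 and 11.2 CPM in untreated replicates 1 and 2, 10.15 and 20.4 CPM in ElavWT, 25.2 and 20.2 CPM in FneWT, and 25.2 and 18.9 CPM in Rbp9WT. FneWT and Rbp9WT lay above both untreated libraries, as did 25.3% and 33.5% of all tested genes, and ElavWT overlapped them. The relative change was 0.93 ± 0.36 (SE; adjusted p = 0.0215) in FneWT and 0.75 ± 0.36 (adjusted p = 0.0251) in Rbp9WT, and 0.35 ± 0.36 in ElavWT did not pass (adjusted p = 0.309). Both calls were kept in 10 of 16 alternatives and were lost after median-ratio scaling (adjusted p = 0.0620 and 0.132) and without untreated replicate 1 (0.238 and 0.226), FneWT replicate 1 (0.315 in FneWT) or Rbp9WT replicate 1 (0.454 in Rbp9WT). They were also lost with edgeR, DESeq2 or no filter on low values, at adjusted p = 0.0546 to 0.0659 in FneWT and 0.0625 to 0.132 in Rbp9WT. CG33158, which overlaps aos on the opposite strand without shared exons, measured 7.99 and 8.67 CPM in untreated cells, 29.9 and 12.6 CPM in ElavWT, 31.8 and 13.8 CPM in FneWT, and 25.0 and 8.96 CPM in Rbp9WT.

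sty (FBgn0014388, chromosome 3L, 3401153 to 3424935, minus strand) encodes Sprouty, an inhibitor of receptor tyrosine kinase signalling that many tissues induce in response to it. It measured 930.0 and 1342 CPM in untreated replicates 1 and 2, 567 and 809.8 CPM in ElavWT, 950.1 and 1714 CPM in FneWT, and 1261 and 1197 CPM in Rbp9WT. Both ElavWT libraries lay below both untreated libraries, at 0.610 and 0.603 of the untreated level of the same replicate number. Of all tested genes, 7.33% lay below in this way in ElavWT. The other groups overlapped untreated cells. The relative change in ElavWT was -0.97 ± 0.34 (SE), and it did not pass in limma with the replicate term (unadjusted p = 0.0471, adjusted p = 0.200). DESeq2 with the replicate term passed it (adjusted p = 0.0262) and edgeR did not (adjusted p = 0.0778). In FneWT and Rbp9WT the changes of -0.09 and -0.28 did not pass (adjusted p = 0.733 and 0.817).

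pnt (FBgn0003118, chromosome 3R, 23290231 to 23346167, minus strand), the ETS activator at the end of the pathway, measured 285 and 786 CPM in untreated replicates 1 and 2. It measured 428 and 336 CPM in ElavWT, 595 and 791 CPM in FneWT, and 561 and 443 CPM in Rbp9WT. The untreated libraries lay so far apart that both ElavWT and both Rbp9WT libraries fell between them. Relative to the median gene of the replicate, pnt was higher than in untreated cells in replicate 1 of each group (0.19, 0.55 and 0.46) and lower in replicate 2 (-1.31, -0.04 and -1.13). No change passed with all libraries. The relative change in FneWT was 0.87 without untreated replicate 2 and -0.36 without untreated replicate 1. In Rbp9WT the same 2 settings gave 0.26 and -0.93, and in ElavWT 0.053 and -1.17.

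aop (FBgn0000097, chromosome 2L, 2156484 to 2178754, minus strand), the ETS repressor that MAP kinase signalling removes from the nucleus, measured 139 and 326 CPM in untreated cells, 163 and 138 CPM in ElavWT, 182 and 267 CPM in FneWT, and 184 and 173 CPM in Rbp9WT. Its libraries overlapped in every comparison and no change passed (adjusted p = 0.358, 0.934 and 0.632). It shares 307 exonic bases with CG15382 on the opposite strand, which measured 2.35 to 10.8 CPM. The ratio of pnt to aop, also added after the levels were seen, was 2.06 and 2.41 in the untreated replicates. It was 2.63 and 2.43 in those of ElavWT, 3.28 and 2.97 for FneWT, and 3.04 and 2.57 for Rbp9WT. Each transfected library lay above both untreated libraries, but an exact two-sided permutation test of 2 libraries against 2 cannot give a p below 0.333.

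Between the proteins, none of the 9 genes passed in any of the 3 contrasts with the replicate number as a term, while 0.176% of tested genes passed in either direction in FneWT against ElavWT, 0.592% in Rbp9WT against ElavWT and 0% in Rbp9WT against FneWT. edgeR and DESeq2 with that term also passed 0 members. At an unadjusted p under 0.05 there were 3 members in the first contrast (pnt, rho and sty), 1 in the second (sty) and 0 in the third. Of all 9114 tested genes, 706, 1006 and 506 were under it in the same limma fit. sty was 0.91 higher on the log2 scale in FneWT than in ElavWT (95% interval 0.20 to 1.62, adjusted p = 0.479) and 0.86 higher in Rbp9WT than in ElavWT (0.15 to 1.57, adjusted p = 0.317). For Egfr the difference was -0.33 in FneWT against ElavWT (-1.12 to 0.46) and -0.004 in Rbp9WT against FneWT (-0.80 to 0.79). For vn it was 0.21 in FneWT against ElavWT (-0.55 to 0.97) and -0.45 in Rbp9WT against FneWT (-1.21 to 0.31). These differences are not shifted by the median gene. The intervals leave room for changes in either direction, so equal responses of vn and Egfr to the 3 proteins are not shown.

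The rest of the pathway was read in 47 further genes, listed by role, of which 46 passed the filter on low values (Ets98B did not). With the replicate term 3 rose in ElavWT, 6 in FneWT and 7 in Rbp9WT, and 0 fell in each, with list medians of -0.01, 0.11 and 0.01. Over all tested genes 9.02%, 15.1% and 17.7% were called higher in the same fit, so these counts do not set the 46 genes apart. The group-only fit passed none of them. The gene csw (FBgn0000382) encodes the tyrosine phosphatase SHP2 of the fly, which carries receptor signals to Ras. It measured 32.2 and 36.3 CPM in untreated replicates 1 and 2, 199.8 and 139.9 CPM in ElavWT, 307 and 170.1 CPM in FneWT, and 258 and 171 CPM in Rbp9WT. Both libraries of each group lay above both untreated ones, as did 23%, 25.3% and 33.5% of all tested genes in ElavWT, FneWT and Rbp9WT. The relative changes were 2.01, 2.43 and 2.17 (SE 0.30 each; adjusted p = 1.46e-05, 6.9e-07 and 1.68e-06), and csw passed in all 16 alternatives with the replicate term in each contrast.

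Of the 16 genes of the Ras and MAP kinase cascade, csw was the only one to pass in ElavWT and FneWT, and csw and tws, a regulatory subunit of protein phosphatase 2A, passed in Rbp9WT (tws 0.64 ± 0.29, adjusted p = 0.0140). The medians of that list were -0.31, -0.18 and -0.28, below the median tested gene. Of the 6 genes of ligand maturation, S (Star), which brings Spitz to the protease, passed in FneWT (0.97 ± 0.33, adjusted p = 0.01002) and Rbp9WT (0.99 ± 0.33, adjusted p = 0.00377). Of 5 genes acting on the receptor, ed (echinoid), a cell adhesion gene and negative regulator, passed in FneWT (0.94 ± 0.34, adjusted p = 0.0149) and Rbp9WT (0.60 ± 0.34, adjusted p = 0.0390). None of 5 cascade inhibitors and neither of the AP-1 genes kay and Jra passed in any group.

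Among the nuclear genes, the repressor gene ttk, whose product is degraded downstream of the receptor in the eye, was the only one of 7 to pass, in FneWT (0.60 ± 0.30, adjusted p = 0.0437) and Rbp9WT (0.79 ± 0.30, adjusted p = 0.00601). Of 5 other ETS-factor genes tested, Ets65A and Ets21C passed in each group. Ets65A measured 3.89 and 0.587 CPM in untreated replicates 1 and 2, 18.6 and 2.13 CPM in ElavWT, 49.3 and 9.64 CPM in FneWT, and 38.2 and 4.98 CPM in Rbp9WT. Its relative changes were 1.24, 2.77 and 2.04 (SE 0.40 each; adjusted p = 0.0160, 7.24e-06 and 1.12e-04). Ets21C, a stress-responsive factor, changed by 1.00, 1.00 and 0.71 (SE 0.33 each; adjusted p = 0.0158, 0.00872 and 0.0183). Leaving out untreated replicate 1 ended the calls of Ets21C, S, ed, ttk and tws in every contrast where they had passed and that of Ets65A in ElavWT. Leaving out replicate 1 of the transfected group ended the same calls, and in Rbp9WT leaving out its replicate 2 ended those of Ets21C, ed, ttk and tws. Median-ratio scaling and edgeR each ended the calls of Ets21C, ed, ttk and tws in Rbp9WT and that of ttk in FneWT, which was also lost without either Rbp9WT library, and edgeR ended that of ed in FneWT. DESeq2 ended the calls of Ets21C, ed and tws in Rbp9WT and those of ed and ttk in FneWT. With no filter on low values, Ets21C in ElavWT, ed in Rbp9WT and ttk in FneWT no longer passed. ed in Rbp9WT was also lost without the rRNA genes, and ttk in FneWT with a filter at a mean of 5 CPM. Genes on the opposite strand overlap ed, Ets21C and Ets65A.

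**Figure D4:**
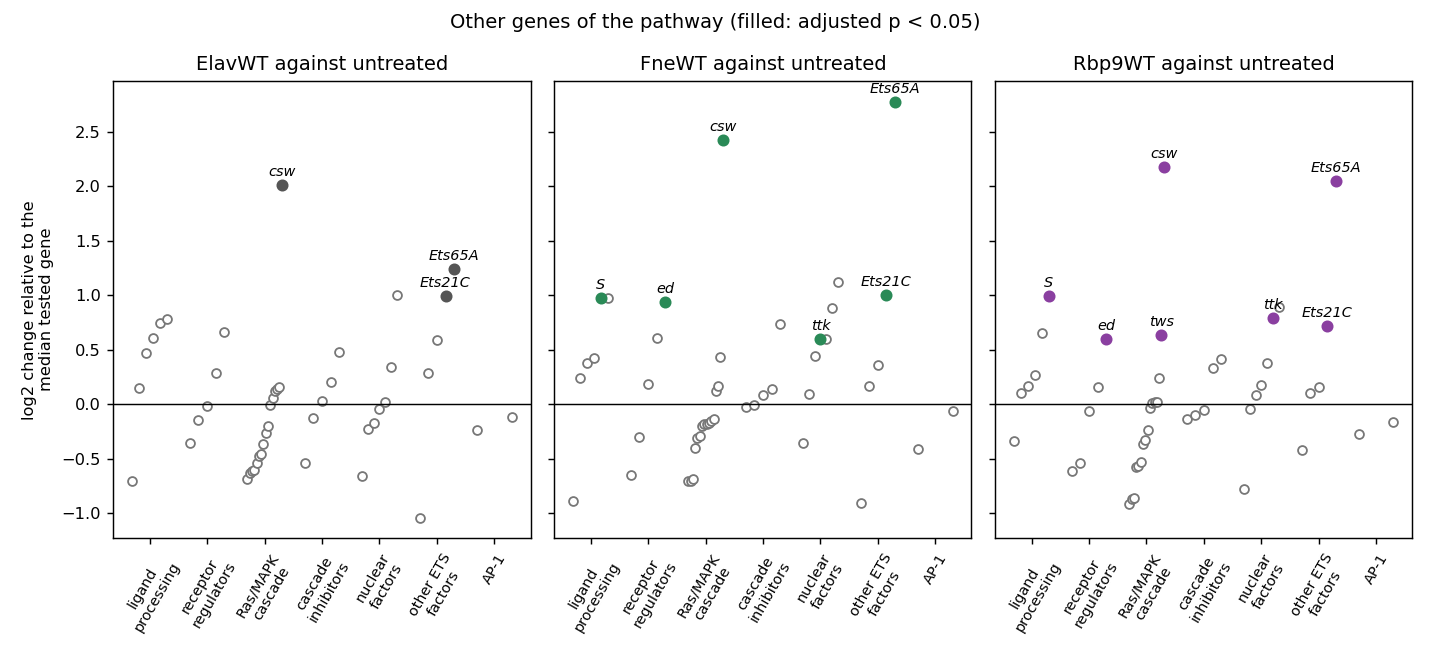
Log2 change from untreated cells, set relative to the median tested gene (y axis), of the other pathway genes that passed the filter on low values, arranged by role (x axis). The fit was limma with a replicate term. Filled and named points have an adjusted p under 0.05. csw stands at 2.01 to 2.43 in the 3 panels, while most genes of the Ras and MAP kinase cascade lie below 0. The median gene at 0 itself lay 0.25 (ElavWT), 0.28 (FneWT) and 0.42 (Rbp9WT) higher than in untreated libraries.

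Markers of other cell types were read in the same fit, in which 9.02%, 15.1% and 17.7% of all tested genes were higher in ElavWT, FneWT and Rbp9WT. The summed level of 8 neuron markers was 173 and 75.2 CPM in untreated replicates 1 and 2, 437 and 159 CPM in ElavWT, 522 and 160.1 CPM in FneWT, and 536 and 151 CPM in Rbp9WT. With the replicate term 2, 3 and 3 of 7 tested neuron markers passed as higher in the 3 groups. The 7 muscle markers summed to 21.3 and 22.5 CPM in untreated cells and to between 28.5 and 246 CPM in transfected libraries, with 2, 4 and 3 of 6 tested passing. The 6 epithelial markers summed to 428 to 558 CPM in untreated and 401 to 718 CPM in transfected libraries, with 3 of 6 passing in each group, and the 10 hemocyte markers to 337 to 412 CPM and 298 to 756 CPM. Of 8 hemocyte markers tested, 0, 3 and 4 passed as higher in ElavWT, FneWT and Rbp9WT, and Pxn passed as lower in ElavWT. Like Egfr and vn, the neuron, epithelial and hemocyte sums were higher in replicate 1 in every group, and the muscle sum was so in the transfected groups only. The part of these differences in the changes of the pathway genes was not tested, and in these bulk samples a change in the number of cells of a type and a change in RNA per cell cannot be told apart.

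For each member, the genes whose profile over the 8 libraries was most like it were found by the root mean square difference of centred log2(CPM + 1) values. Closest to vn were cv-2 (0.102), which encodes a BMP-binding protein, the circadian gene Clk (0.180) and CG9270 (0.220), beside a spread of vn itself of 1.58. cv-2 measured 11.8 and 4.55 CPM in untreated replicates 1 and 2, 125 and 20.02 CPM in ElavWT, 137 and 28.7 CPM in FneWT, and 106 and 21.1 CPM in Rbp9WT. Closest to Egfr were the receptor tyrosine kinase gene Ror (0.155), CG34386 (0.214) and the teneurin gene Ten-a (0.216), beside a spread of 1.25. Closest to aos were TTLL4A (0.206), Cib2 (0.211) and CG4230 (0.247), beside a spread of 0.573. These are descriptions of 8 libraries that share a replicate structure, and carry no test.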

How the data were processed

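The deposited values are CPM per gene, and no aligner or counter is named in the labels. Per the submitters' processing notes the genome was dm6. Sample titles gave the group and the replicate number. From the spacing of its values, each library's CPM step per read was derived, which turned 100% of values into whole reads (tolerance 0.01 of a read). Of 13777 identifiers 13684 matched the annotation. The test used limma 3.58.1 (trend, robust) in R 4.3.3 on log2(CPM + 1), in a single fit of all 8 libraries, for the 9114 genes that averaged 1 CPM or more. The fit planned as the main one had the group as its only term. Libraries with the same number deviated together from their groups' means (correlation 0.55 to 0.869 over the 6 pairs of groups), so the numbers were taken to pair them. The labels do not state this pairing, which comes from the values alone. Changes, standard errors and adjusted p-values in the text come from the fit with the replicate number as a term, unless another fit is named. The whole reads were also tested with DESeq2 1.42.0 and with edgeR 4.0.16 (quasi-likelihood). The members and lists were chosen with earlier results of these data known, so no p-value was adjusted over a list. Named genes are the 9 members, at most 4 genes of each pathway list that passed in any contrast with untreated cells, and the 3 nearest profiles of each member. Also named are fixed markers, the genes of the transfected proteins, genes that overlap or adjoin a member, and kay, Jra and Ets98B, which were chosen after their values were seen. Python 3.11.15 with scipy 1.17.1 gave exact (Clopper-Pearson) 95% intervals.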

Additional observations from a re-analysis of the deposited data

How the results depend on the processing

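The replicate block decided the counts: 2, 4 and 3 of the 9 genes passed in ElavWT, FneWT and Rbp9WT with it and 0 without it. In Rbp9WT the count with the block fell to 2, aos being lost, with DESeq2, edgeR, median-ratio scaling or no filter on low values. In ElavWT it rose to 3 with DESeq2, which added sty. With the block, the count in FneWT fell to 2 with DESeq2, edgeR, median-ratio scaling or no filter on low values, and leaving out each replicate gave 1 to 3, 1 to 6 and 1 to 4 genes, with the lone library of a group assumed to vary like the others. The largest of these counts came, in each contrast, from leaving out untreated replicate 2. Of the fits that left out a library, that fit also called the most genes over the whole table. The spread of the counts is therefore not particular to the 9 genes. With the block, vn passed in all alternatives run in each contrast, with relative log2 changes of 1.85 to 2.89 in ElavWT, 2.02 to 3.06 in FneWT and 1.45 to 2.46 in Rbp9WT. Small changes that had not passed turned sign. In ElavWT rho stood at -0.0073 after median-ratio scaling and at -0.0021 and -0.0015 with pseudocounts of 0.1 and 0.5, and in FneWT sty stood at 0.040 with a stricter filter (mean level of 5 CPM or more). Both the 0.1 pseudocount and the 5 CPM filter with the block were chosen after seeing the data. Leaving out each replicate gave ranges across 0 in ElavWT for rho (-0.52 to 0.55), aos (-0.19 to 0.91) and pnt (-1.17 to 0.053). The same held in FneWT for spi (-0.58 to 0.25), sty (-0.51 to 0.31), pnt (-0.36 to 0.87) and aop (-0.64 to 0.19), and in Rbp9WT for spi (-0.57 to 0.021), Krn (-1.11 to 0.37), sty (-0.66 to 0.11) and pnt (-0.93 to 0.26). The cause was not tested. Untreated Egfr, vn and Krn rested on 13 to 110 reads per library, which limits their precision.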

Other observations

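The nearest profiles of the remaining members over the 8 libraries are given as the root mean square difference of centred log2(CPM + 1) values. The spreads of these members themselves were 0.220 (spi), 0.488 (Krn), 0.726 (rho), 0.462 (sty), 0.502 (pnt) and 0.407 (aop). spi lay nearest to the profilin gene chic (0.0953), CG14230 (0.106) and the TNF-type ligand gene egr (0.111). Krn lay nearest to strat (0.183), the frataxin gene fh (0.192) and CG40472 (0.228), and rho to YL-1 (0.102), the kinase gene Ask1 (0.165) and Arl6 (0.185). sty lay nearest to the tetraspanin gene Tsp86D (0.115), mRpS28 (0.199) and Grp170 (0.213). pnt, whose untreated libraries measured 285 and 786 CPM, lay nearest to RhoGAP19D (0.133), which measured 54.6 and 137 CPM there, Ae2 (0.160) and bin3 (0.184). aop lay nearest to CG42788 (0.164), FBgn0029899 (0.182) and HDAC4 (0.184).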
